A study of Mus musculus with 4 samples.

Results

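The genes described here are 10 genes of the cornified envelope machinery of stratified epithelium: the transglutaminases Tgm1, Tgm3 and Tgm5, the plakins Evpl and Ppl, the protease Asprv1, the secreted proteins Sbsn and Krtdap, and Cnfn and Cstb. They were chosen by name, by matching the symbols of the deposited count table, and all 10 were found among its 54446 gene IDs. RNA was sequenced from 4 libraries of epithelial cells derived from the tongue of C57BL/6 mice and cultured in RPMI-1640 with 10% FBS. Control 1 and Control 2 are from wild-type mice, and the other 2 libraries from cells whose genotype label gives a systemic knockout of Otub2, a deubiquitinase (numbered 3 and 4, called "labelled Otub2 knockout" here). No treatment, age or sex is given for either group. The sources used here do not give the knockout allele, the number of mice behind each library, or whether libraries of a group came from separate mice or cultures, so p-values measure only the spread between these libraries, which may be technical.

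The cornified envelope is a shell of crosslinked protein that replaces the plasma membrane of the outermost cells of a stratified epithelium. Envoplakin (Evpl) and periplakin (Ppl) form a scaffold under the membrane, and transglutaminases then join loricrin, involucrin, small proline-rich and other proteins to it by bonds between glutamine and lysine side chains. Tongue epithelium is stratified and partly keratinized, and its upper layers make these proteins as the cells leave the basal layer.

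Sbsn and Krtdap lie in one cluster on chromosome 7 with Dmkn, another secreted protein of stratified epithelium, between them. In GENCODE mouse release M21 (GRCm38) Sbsn spans chr7:30751471-30756134, Dmkn chr7:30763756-30781063 and Krtdap chr7:30787896-30791097, all on the plus strand, so that the cluster covers 39627 bases. Cnfn lies on the same chromosome (chr7:25367620-25369724, minus strand). Tgm1 lies on the minus strand at chr14:55700009-55713926. Tgm3 (chr2:130012349-130050399, plus strand) and Tgm5 (chr2:121046111-121085841, minus strand) share a chromosome. Evpl lies at chr11:116220559-116238077 and Ppl at chr16:5086291-5132421, both on the minus strand, and Cstb at chr10:78425669-78427622 on the plus strand. Asprv1 is a gene of a single annotated exon (chr6:86628164-86629710, plus strand). The sequences below are the 150 bases before the RefSeq transcription start of 3 genes and the start base itself (GRCm38.p6), read 5′ to 3′ on the gene's strand. They are shown because Krtdap and Sbsn are neighbours whose ratio of counts differed between the libraries, and because Asprv1 stood highest of the 10 relative to the controls in library 4. Capitals mark matches, on either strand, to TGANTCA (the motif of AP-1 factors) or GGGNGNGG (a motif of KLF factors).
Krtdap, chr7:30787755-30787905, plus strand: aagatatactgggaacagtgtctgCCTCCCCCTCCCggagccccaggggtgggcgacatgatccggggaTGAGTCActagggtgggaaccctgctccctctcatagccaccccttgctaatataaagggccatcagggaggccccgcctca
Sbsn, chr7:30751321-30751471, plus strand: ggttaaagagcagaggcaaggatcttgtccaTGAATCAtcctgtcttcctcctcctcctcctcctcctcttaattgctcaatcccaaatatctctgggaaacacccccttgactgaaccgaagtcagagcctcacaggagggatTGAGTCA
Asprv1, chr6:86628024-86628174, plus strand: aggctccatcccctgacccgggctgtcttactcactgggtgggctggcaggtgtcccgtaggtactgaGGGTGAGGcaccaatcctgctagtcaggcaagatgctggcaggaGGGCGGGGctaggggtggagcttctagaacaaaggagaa

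RefSeq promoter windows (300 bases, 250 before the start and 50 from it on) were at hand for 7 of the 10 genes. They made 8 windows, because Tgm1 has an extra one. TGANTCA was found in 2 of the 8 windows, those of Krtdap and Sbsn, and in 7.81% of all 32851 windows. GGGNGNGG was found in 6 of the 8 windows, each of a different gene, and in 49.5% of all windows. AACCNGTT (grainyhead-like factors) was found in the Tgm5 window and in 2.09% of all windows, and GGAATG (TEAD factors) in the Tgm3 window and in 14.7% of all. In a string with several KLF matches, overlapping matches run together, as in the first capitals of Krtdap. These are matches of letters, and binding was not measured.

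Total counts ran from 11882900 to 23017183 per library. The 10 genes had between 470 and 20523 counts in each library, and the lowest of these, Tgm5 in library 3, has an exact 95% Poisson interval of 428 to 514, which covers counting error only. Levels are given as CPM, the reads of a gene for each 1e+06 of the library size after the TMM scaling described below. Otub2 itself had 393 counts in Control 1, 367 in Control 2, 272 in library 3 and 495 in library 4. It was at 27.5 CPM in Control 1, 26.9 CPM in Control 2, 19.0 CPM in library 3 and 24.0 CPM in library 4. Its log2 fold change of -0.34 (SE 0.302) had an edgeR adjusted p of 0.485, and a gene-level count can include exons that remain. The count columns of the latter libraries are headed OE where the sample titles say KO, and the titles were followed. Library 3 stood apart. A list of 16 gland secretory markers took 30.1% of its gene counts and at most 0.00344% of those of the other 3 libraries, and 12 cardiac muscle markers took 1.33% against at most 0.00936%. The 18 basal and suprabasal keratinocyte markers, among them Krt5 and Krt14, were all tested, and none was at 0 in all libraries. They took 8.52% and 7.96% of gene counts in the controls, 2.38% in library 3 and 5.84% in library 4.

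Most of the 10 genes were at lower levels in library 3 than in both controls, whereas in library 4 they split. CPM here are scaled by TMM, a method that sets library sizes so that most genes balance. In library 3, 9 of the 10 genes lay below both controls (28.4% of the 11788 genes whose mean CPM reached 5 did so), and Ppl lay between them. In library 4, 5 lay below both controls (23.4% of genes), 3 above (Tgm1, Asprv1 and Sbsn, against 64.2% of genes) and 2 between. In both libraries together, Tgm3, Tgm5, Krtdap, Cnfn and Cstb lay below both controls (5 of 10, against 12% of genes) and none lay above (42.7% of genes). The gland and cardiac transcripts of library 3 move with its lower values, and their part in them was not tested. The gland markers took 0.00344% of the gene counts of library 4.

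No gene passed the edgeR quasi-likelihood test at an adjusted p of 0.05, among the 10 or among all 21916 genes tested (0% in each direction). At an unadjusted p under 0.05, Tgm5 and Krtdap were lower (2 of 10, against 15.2% of genes lower and 9.42% higher). DESeq2 and limma voom called 0 of the 10 as well, while DESeq2 called 8% of its 14569 genes higher and 0.844% lower. All 10 genes passed the filter on low counts.

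**Figure D1:**
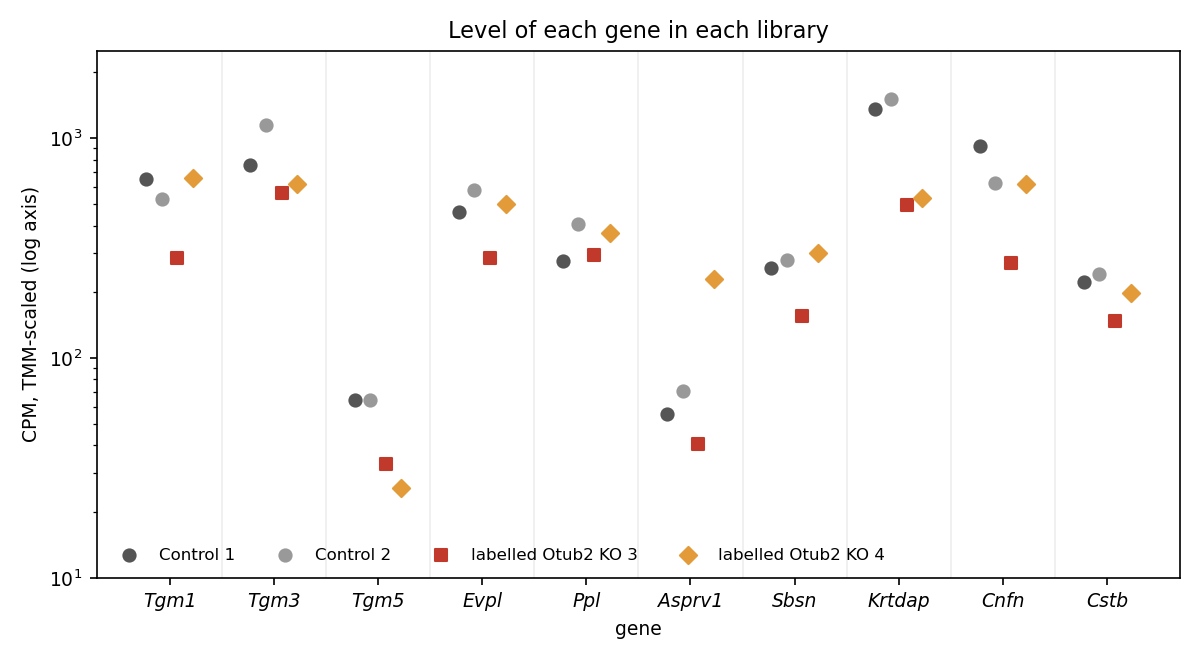
Level of each of the 10 genes in each library, in TMM-scaled CPM on a log axis. Each point is 1 library (circles, controls; square, labelled Otub2 knockout 3; diamond, labelled Otub2 knockout 4). For Krtdap and Tgm5 both labelled libraries sit well below both controls, whereas for Asprv1 library 3 is below and library 4 above.

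The position of a gene relative to the controls depends on the scaling, so the distance of the 10 genes from the other genes was also taken. In log2 units the median difference from the controls stood at -0.45 for the 10 genes and at 0.36 for all genes of mean CPM at least 5. This distance of -0.81 does not depend on the scaling, since a scaling shifts all genes alike. Taken for each library on its own, it was -1.12 in library 3 and -0.49 in library 4. All 10 genes lay below the all-gene median in library 3, and 9, all but Asprv1, in library 4. Krtdap lay lowest: 1.71% of genes had a lower difference in library 3 and 3.60% in library 4. For Tgm5 these shares were 5.42% and 3.95%, and for Asprv1 they were 11.0% and 97.2%. Both labelled libraries were set against the same 2 controls, so their differences are not independent of each other.

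**Figure D2:**
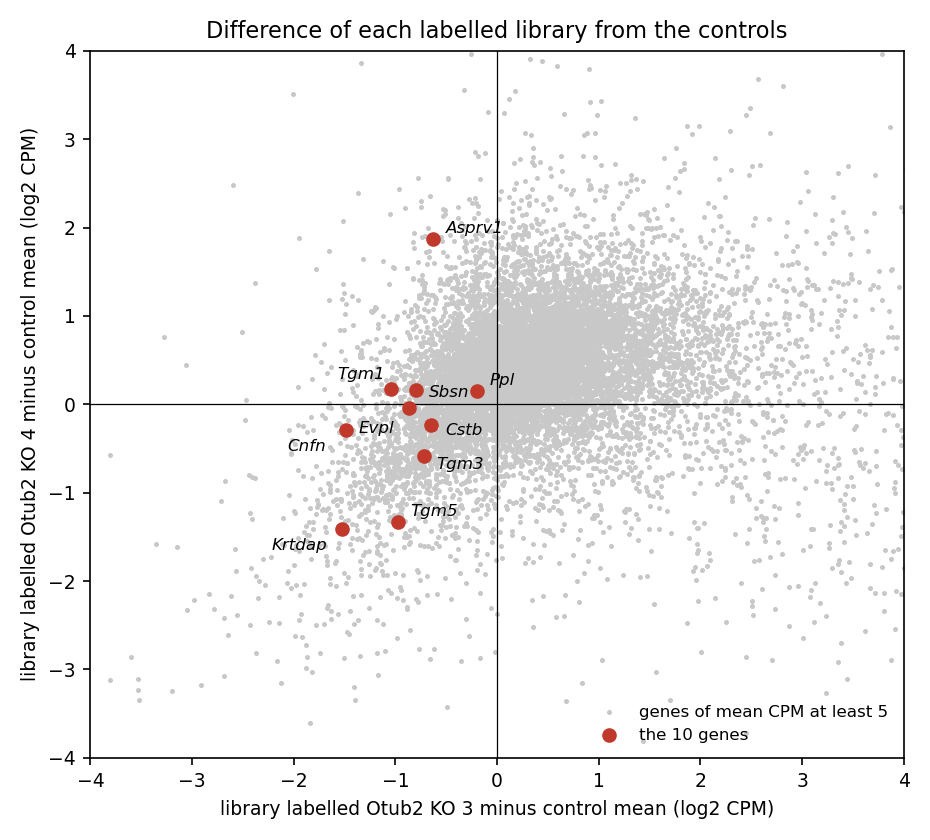
Difference from the mean of the 2 controls in log2 CPM, in the library labelled Otub2 knockout 3 (x axis) and 4 (y axis). Grey points are 11482 genes of mean CPM at least 5 (306 more lie outside the axes), red points the 10 genes, which all lie left of 0, with Krtdap and Tgm5 low on both axes and Asprv1 at 1.87 on the y axis.

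Among the transglutaminases, Tgm5 and Tgm3 lay below both controls in both labelled libraries, and Tgm1 was below both controls in library 3 but not in library 4. Tgm1, the membrane-anchored enzyme whose loss causes lamellar ichthyosis in humans, was at 652 CPM in Control 1, 532 CPM in Control 2, 286 CPM in library 3 and 662 CPM in library 4 (log2 fold change -0.32, SE 0.474, edgeR adjusted p = 0.674). Library 3 was low and library 4 at the level of Control 1, so the groups overlapped. Tgm3, the cytosolic enzyme that is activated by proteolysis and is also prominent in hair, was at 758 CPM in Control 1, 1147 CPM in Control 2, 565 CPM in library 3 and 621 CPM in library 4 (log2 fold change -0.68, SE 0.353, adjusted p = 0.274). The groups did not overlap, but the controls differed from each other by 1.51-fold. Tgm5, which crosslinks in the upper spinous and granular layers and is mutated in acral peeling skin syndrome, was at 64.6 CPM in Control 1, 64.2 CPM in Control 2, 32.8 CPM in library 3 and 25.6 CPM in library 4. Its log2 fold change was -1.14 (SE 0.268, 95% interval -1.82 to -0.46, edgeR adjusted p = 0.166). Here the Tgm5 levels of the controls were nearly equal and both labelled libraries were far below them. Genes annotated on the opposite strand of Tgm1, Tgm3 and Tgm5 had at most 5 counts in any library.

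The proportions of the 3 transglutaminases to each other varied from library to library. Per length of transcript, Tgm1 made up 50.3% and 36.1% of the summed level of Tgm1, Tgm3 and Tgm5 in the controls, 38.1% in library 3 and 56.9% in library 4. Tgm5 made up 4.99% and 4.37% in the controls, 4.38% in library 3 and 2.21% in library 4. The share of Tgm1 in library 3 thus lay between the controls and that in library 4 above both, and that of Tgm5 was below the other 3 libraries in library 4. Of 6 other members of the family, 0 passed the edgeR test and 0 had an unadjusted p under 0.05. Tgm2, the widely expressed tissue transglutaminase, had 75 and 54 counts in the controls, 629 in library 3 and 87 in library 4.

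The plakins Evpl and Ppl, partners in one scaffold, differed in how they stood in library 3. Evpl was at 462 CPM in Control 1, 582 CPM in Control 2, 284 CPM in library 3 and 502 CPM in library 4 (log2 fold change -0.41, SE 0.389, edgeR adjusted p = 0.513). Library 3 lay below both controls and library 4 between them. Ppl was at 276 CPM in Control 1, 406 CPM in Control 2, 293 CPM in library 3 and 371 CPM in library 4 (log2 fold change -0.04, SE 0.332, adjusted p = 0.945), with both labelled libraries between the controls. The 95% interval of the Ppl difference, -0.88 to 0.80, still allows a change of that size in either direction. Within a library, there were 1.67 and 1.43 Evpl reads for each Ppl read in the controls, 0.970 in library 3 and 1.35 in library 4. Both ratios were below those of both controls, as were the ratios of 8.47% of other genes to Ppl.

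Other plakins link desmosomes, hemidesmosomes and the cytoskeleton. Of 5 (Dsp, Plec, Dst, Macf1 and Eppk1), 0 passed the edgeR test, 2 had an unadjusted p under 0.05 in the higher direction (against 9.42% of genes), and 3 lay above both controls in both labelled libraries (against 42.7% of genes, so that 3 of 5 is near the background). Dst, whose epithelial isoform anchors keratin at hemidesmosomes, was at 185 CPM in Control 1, 296 CPM in Control 2, 533 CPM in library 3 and 776 CPM in library 4 (log2 fold change 1.45, SE 0.391, adjusted p = 0.166). Macf1, a linker of actin and microtubules, was at 183 CPM in Control 1, 262 CPM in Control 2, 391 CPM in library 3 and 385 CPM in library 4 (log2 fold change 0.80, SE 0.307, adjusted p = 0.199). The counting does not separate isoforms.

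Among the 10, Asprv1 was the gene on which the 2 labelled libraries differed most. It encodes a retroviral-like aspartic protease of the granular layer that trims profilaggrin, the precursor of filaggrin. Asprv1 had 792 and 962 counts in the controls, 580 in library 3 and 4729 in library 4, that is 55.4, 70.5, 40.5 and 229 CPM. Library 3 was the lowest of the 4 and library 4 the highest, 5.65-fold above library 3, whereas the controls differed by 1.27-fold. With libraries this far apart the log2 fold change of 1.10 had an SE of 0.787 and an edgeR adjusted p of 0.398. Without library 3 it was 1.89 (SE 0.254, adjusted p = 7.74e-12, with 18.8% of all genes called higher in that fit), and without library 4 it was -0.64 (SE 0.281, adjusted p = 0.0612). Both fits take the spread of the controls for the lone library as well. Flg, its substrate, was at 3.57 CPM in Control 1, 10.5 CPM in Control 2, 10.7 CPM in library 3 and 11.3 CPM in library 4 (log2 fold change 0.64, SE 0.611, adjusted p = 0.517), and Control 1 was the lowest. The edgeR value for Flg was 0.067 without Control 1 (adjusted p = 0.984) and 1.65 without Control 2 (adjusted p = 0.732).

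Krtdap stood below both controls by nearly the same amount in both labelled libraries, while its neighbour Sbsn did not. Krtdap, a small secreted protein of suprabasal keratinocytes, had 19449 counts in Control 1, 20523 in Control 2, 7110 in library 3 and 11091 in library 4. On the TMM scale the labelled libraries were at 34.7% and 37.5% of the control mean (geometric), and the log2 fold change was -1.47 (SE 0.320, 95% interval -2.28 to -0.66, edgeR adjusted p = 0.166). Sbsn, suprabasin, another secreted protein of the upper layers, was at 257 CPM in Control 1, 279 CPM in Control 2, 155 CPM in library 3 and 299 CPM in library 4 (log2 fold change -0.24, SE 0.390, adjusted p = 0.701). The Sbsn libraries overlapped, with library 3 the lowest and library 4 the highest. Dmkn, dermokine, which lies between them, was at 1673 CPM in Control 1, 1488 CPM in Control 2, 673 CPM in library 3 and 1032 CPM in library 4 (log2 fold change -0.89, SE 0.380, adjusted p = 0.219). The edgeR value for Dmkn was -0.59 without library 3 (adjusted p = 0.0576) and -1.24 without library 4 (adjusted p = 7.04e-05). A noncoding transcript, Tmem147os, overlaps Sbsn on the same strand, but its own count was 0, 3, 1 and 0 in the 4 libraries, and whether its reads and those of Sbsn were separated is not given in the sources used here.

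Within the cluster the proportions of reads differed between the libraries, and no scaling affects them. For each Sbsn read there were 5.29 and 5.38 Krtdap reads in the controls, 3.21 in library 3 and 1.79 in library 4, so that the geometric mean ratio of the labelled libraries was 0.450 of that of the controls. Of all other genes of mean CPM at least 5, 4.53% likewise had ratios to Sbsn below both controls in both libraries. The ratio of Dmkn to Sbsn was 6.51 and 5.33 in the controls against 4.36 and 3.45, and that of Krtdap to Dmkn was 0.814 and 1.01 against 0.737 and 0.520 (1.57% of genes lay below in their ratio to Dmkn). These ratios show unequal differences between neighbours and not which gene moved. With 2 libraries against 2, an exact two-sided permutation test of a single ratio cannot go below 0.333. In all, 15 ratios were computed, of which 12 did not overlap between the groups. Ratios of most genes to several of the same denominators also separated, with 84.4% above and 1.57% below for Dmkn, 71.6% and 1.97% for Tgm3, and 69.2% and 4.56% for Cstb, so nothing is read from that count.

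Cnfn was low in library 3 and close to Control 2 in library 4. Cornifelin (Cnfn), a small cysteine-rich protein of the envelope, was at 920 CPM in Control 1, 626 CPM in Control 2, 271 CPM in library 3 and 620 CPM in library 4 (log2 fold change -0.79, SE 0.498, edgeR adjusted p = 0.343). Its groups did not overlap, but library 4 was below Control 2 by less than the controls differed from each other. Reads of Cnfn per read of Tgm1 were 1.41 and 1.18 in the controls, 0.947 in library 3 and 0.938 in library 4. The ratio was lower in both labelled libraries, as it was for 2.85% of other genes.

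Cstb, which is made in many cell types and inhibits lysosomal cysteine cathepsins, was at 222 CPM in Control 1, 242 CPM in Control 2, 148 CPM in library 3 and 197 CPM in library 4 (log2 fold change -0.43, SE 0.283, edgeR adjusted p = 0.365). Both labelled libraries lay below both controls. Of its target proteases, Ctsl was at 139 CPM in Control 1, 121 CPM in Control 2, 263 CPM in library 3 and 391 CPM in library 4 (log2 fold change 1.33, SE 0.319, adjusted p = 0.166). Ctsb was at 351 CPM in Control 1, 291 CPM in Control 2, 445 CPM in library 3 and 417 CPM in library 4 (log2 fold change 0.43, SE 0.282, adjusted p = 0.365). Ctsh was at 86.1, 60.0, 80.4 and 85.1 CPM in the same order (log2 fold change 0.18, SE 0.284, adjusted p = 0.695). The sign of these 2 fold changes turned under some scalings. Ctss, a cathepsin of antigen-presenting cells, was at 30.1, 20.6, 18.6 and 7.31 CPM (log2 fold change -0.97, SE 0.544, adjusted p = 0.303). Library 4 was far the lowest for Ctss, and the edgeR value was -1.77 without library 3 (adjusted p = 1.06e-06), -0.45 without library 4 (adjusted p = 0.230) and -0.66 without Control 1 (adjusted p = 0.853). For each Cstb read there were 0.626 and 0.501 Ctsl reads in the controls, 1.78 in library 3 and 1.98 in library 4. The ratio, 3.35-fold higher by geometric means, lay above both controls, as did the ratio to Cstb of 69.2% of genes.

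**Figure D3:**
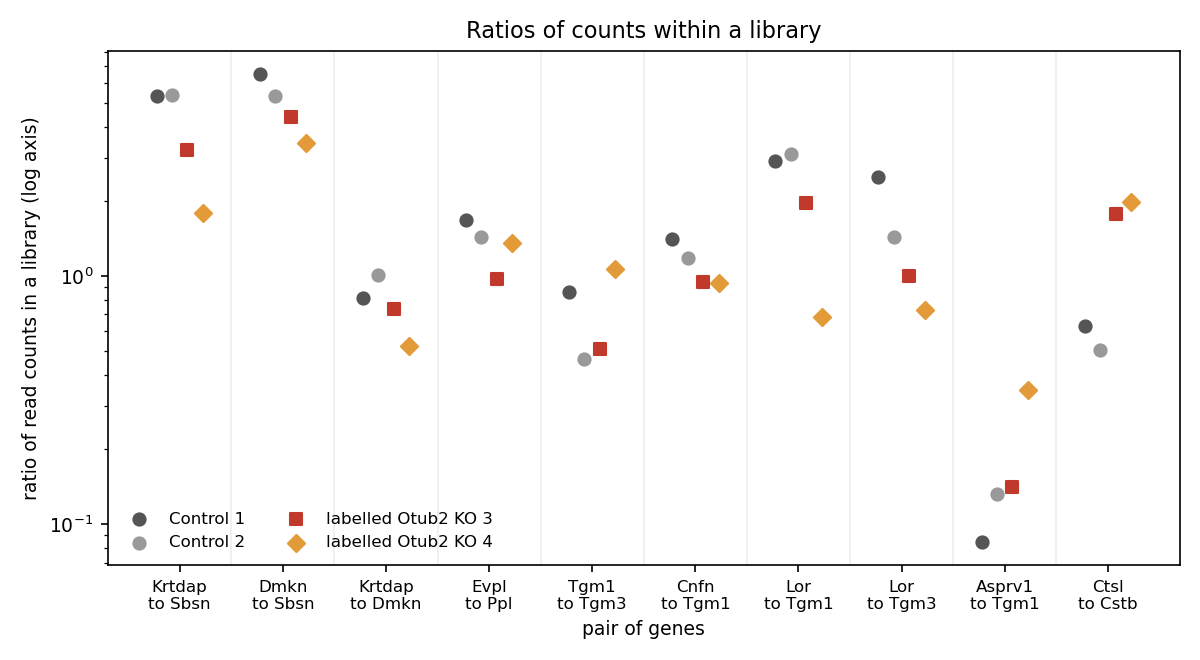
Ratio of the read counts of 2 genes within each library, on a log axis, which no library scaling affects. Each point is 1 library (circles, controls; square, labelled Otub2 knockout 3; diamond, labelled Otub2 knockout 4). The ratios of Krtdap to Sbsn and of Lor to Tgm1 lie lower in both labelled libraries, that of Ctsl to Cstb lies higher, and those of Tgm1 to Tgm3 overlap.

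Per length, Krtdap and Cnfn were the most abundant of the 10 transcripts and Tgm5 the least. Levels between genes are given as TMM-scaled CPM per kilobase, with the gene length that the deposited FPKM imply. Krtdap was at 2109 ± 148 CPM per kilobase (SD, n = 2) in the controls and at 761 ± 41.9 in the labelled libraries, and Cnfn was at 1075 ± 290 and 620 ± 344. Cstb was the third in all 4 libraries, at 385 ± 23.4 and 286 ± 58.1. Tgm3 and Tgm1 followed at 230 ± 66.4 and 187 ± 26.8 in the controls and at 143 ± 9.55 and 150 ± 83.9 in the others, and their order changed from library to library. Evpl, Sbsn, Ppl and Asprv1 lay between 40.7 and 81.8 CPM per kilobase in the controls. Evpl (81.8 ± 13.3) was above Sbsn (74.0 ± 4.35), and Ppl (49.5 ± 13.3) above Asprv1 (40.7 ± 6.87), in both controls and in library 3, although the control means of each pair differed by less than 1 SD of the first gene. In library 4 both orders were the opposite. Tgm5 was last in each library, at 20.4 ± 0.0967 in the controls and 9.26 ± 1.62 in the others. Krtdap and Cnfn changed places in library 4, and Asprv1, the ninth in the other 3 libraries, was the sixth there.

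Set against 18 keratinocyte markers, suprabasal ones among them, rather than all transcripts, the 10 genes together overlapped between the groups. The overlap held for this set and not for the basal markers alone, given below. For each 1000 reads of the 18 basal and suprabasal keratinocyte markers, the 10 genes had 69.2 and 81.0 reads in the controls, 68.1 in library 3 and 76.0 in library 4. Library 3 was the lowest and Control 2 the highest. Scaled in this way, Tgm5 and Krtdap still lay below both controls in both libraries (against 3.06% of genes), with log2 fold changes of -0.45 and -0.82, while Ppl, Asprv1 and Cstb lay above (against 77.3% of genes). Of the 9 suprabasal markers reaching the minimum mean CPM of 5, 7 lay below both controls in both labelled libraries (against 12% of genes) and 0 above (against 42.7%). Summed over all 10, they were at 40469 and 38365 CPM in the controls, 20467 in library 3 and 22768 in library 4, a sum carried mainly by Krt13, Krt16 and Krt6a. Krt1 went the other way in library 4, at 264 CPM against 27.9 and 80.3 CPM in the controls, as did Dsg3, at 739 CPM against 277 and 558 CPM. Krt10, the suprabasal marker of smallest p, was at 840 and 1894 CPM in the controls, 49.2 in library 3 and 236 in library 4. Its log2 fold change was -3.26 (SE 0.889, edgeR adjusted p = 0.166). The basal markers were at 32182, 28948, 17290 and 30685 CPM in the same order, a sum carried mainly by Krt14 and Krt5. Its value in library 4 joins opposite differences. Krt14 (15974 against 25325 and 21568 CPM in the controls) and Krt15 lay below both controls there (23.4% of all genes did). Krt5 (8223 against 5025 and 4840 CPM), Trp63, Itga6, Itgb4, Col17a1 and Cdh3 lay above both (64.2% of all genes did). Fewer differentiating cells and less RNA per cell cannot be told apart in bulk libraries. Fibroblast markers (10 genes, none at 0) summed to 242 and 278 CPM in the controls, 833 in library 3 and 581 in library 4. In both labelled libraries 7 of them lay above both controls (against 42.7% of genes) and 0 below (against 12%). In library 4 Dcn (11.0 against 17.1 and 18.6 CPM) and Pdgfra (7.07 against 8.40 and 8.06 CPM) lay below both controls, and Thy1 between them. The part of fibroblast transcripts in these differences was not tested.

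Substrates of the envelope, and genes that act beside or upstream of the 10, were taken from lists of the pathway. Of 29 envelope substrates, 26 were tested and 0 passed the edgeR test; unadjusted p was under 0.05 for 3 in the higher direction (9.42% of all genes) and 2 in the lower (15.2%). Among the 20 reaching the minimum mean CPM, 2 were above both controls (42.7% of all genes) and 4 below (12%). Library 3 had a median difference of -0.65 over these substrates (0.29 over all genes) and library 4 one of 0.86 (0.36 over all genes). Lor, the main substrate, was at 1902 and 1643 CPM in the controls, 564 in library 3 and 452 in library 4. Its log2 fold change was -1.80 (SE 0.349, edgeR adjusted p = 0.166). There were 2.92 and 3.09 Lor reads per Tgm1 read in the controls, 1.97 in library 3 and 0.683 in library 4 (2.85% of genes lay below in this ratio). Sprr1b, a small proline-rich crosslinking protein, was at 805 CPM in Control 1, 887 CPM in Control 2, 337 CPM in library 3 and 293 CPM in library 4 (log2 fold change -1.43, SE 0.300, adjusted p = 0.166). Of the 3 higher ones, Lce3e was at 16.4 and 9.89 CPM in the controls, 22.8 in library 3 and 89.5 in library 4. Its log2 fold change was 2.10 (SE 0.711, edgeR adjusted p = 0.180). Lce1c, another of the 3, was scarce, with 6 and 9 counts in the controls, 14 in library 3 and 160 in library 4. Ivl, involucrin, was scarce as well, with 15 and 22 counts in the controls, 28 in library 3 and 129 in library 4.

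Of 23 cornification proteases and their inhibitors, 0 passed the test. At an unadjusted p under 0.05, 1 (Ctsl) was higher (9.42% of all genes) and 5 were lower (15.2%). Among the 21 reaching the minimum mean CPM, 6 were above both controls (42.7% of all genes) and 6 below (12%). Casp14, the caspase of cornifying cells that also acts on filaggrin, was at 35.8 CPM in Control 1, 42.0 CPM in Control 2, 8.31 CPM in library 3 and 11.7 CPM in library 4 (log2 fold change -1.96, SE 0.341, edgeR adjusted p = 0.166). Cst6, a secreted cystatin that restrains the cathepsins acting on Tgm3, was at 154 CPM in Control 1, 110 CPM in Control 2, 49.0 CPM in library 3 and 29.0 CPM in library 4 (log2 fold change -1.76, SE 0.373, adjusted p = 0.166). In both genes the groups were well apart.

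Most transcription factors of keratinocyte differentiation lay below both controls. Of 13, 0 passed the test. Unadjusted edgeR p was under 0.05 for 0 in the higher direction (9.42% of all genes) and 6 in the lower (15.2%). Of the 12 whose mean CPM reached 5, 9 were below both controls in both labelled libraries (against 12% of genes). Prdm1 (71.6 against 27.9 and 27.2 CPM), Trp63 (526 against 312 and 347 CPM) and, barely, Tfap2a lay above both controls in library 4. In that library 64.2% of all genes did so. Grhl3, a grainyhead-like factor needed for Tgm1 expression in epidermis, was at 214 CPM in Control 1, 234 CPM in Control 2, 98.0 CPM in library 3 and 116 CPM in library 4 (log2 fold change -1.07, SE 0.260, edgeR adjusted p = 0.166). Klf4, a factor of barrier formation, was at 868 CPM in Control 1, 890 CPM in Control 2, 313 CPM in library 3 and 519 CPM in library 4 (log2 fold change -1.08, SE 0.370, adjusted p = 0.182). Tgm1 did not share this position in library 4. These lists were chosen with earlier results of these data known.

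The position of the 10 genes in each labelled library was also fitted alone against the controls. Without library 4, that is for library 3, 8 of the 10 were called lower by edgeR (12.7% of 23380 genes were), with log2 fold changes from -0.66 for Cstb to -1.53 for Krtdap. Ppl (-0.23, adjusted p = 0.533) and Asprv1 were not called. Without library 3, that is for library 4, Tgm5 (-1.30, SE 0.291, adjusted p = 7.42e-05) and Krtdap (-1.39, SE 0.274, adjusted p = 5.91e-06) were called lower (22% of 23181 genes were) and Asprv1 higher. For library 3 the log2 fold changes of Tgm5 and Krtdap were -0.98 and -1.53, and for library 4 they were -1.30 and -1.39. Both fits use the same controls and take their spread for the lone labelled library as well. The calls therefore do not measure spread among labelled libraries.

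How many of the 10 genes lay outside both controls depended on the scaling. With library size only, or with the gland and cardiac genes left out of the library size, the same 5 genes as with TMM lay below (against 21.1% and 17.6% of genes) and none above (against 13.7% and 27.1%). With RLE size factors Cnfn no longer did, which left 4 below (against 10.5% of genes) and none above (against 45.8%). With upper-quartile factors, or with each library centred on its median gene, all but Asprv1 lay below, 9 of 10 (30.8% and 31.4% of genes). None of the 10 was called with library size only, which called 0.169% of genes higher and 6.54% lower, or without the filter on low counts, which called 0.0127% and 0.00633%. Tgm5 and Krtdap lay below both controls under each of the 7 scalings tried.

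**Figure D4:**
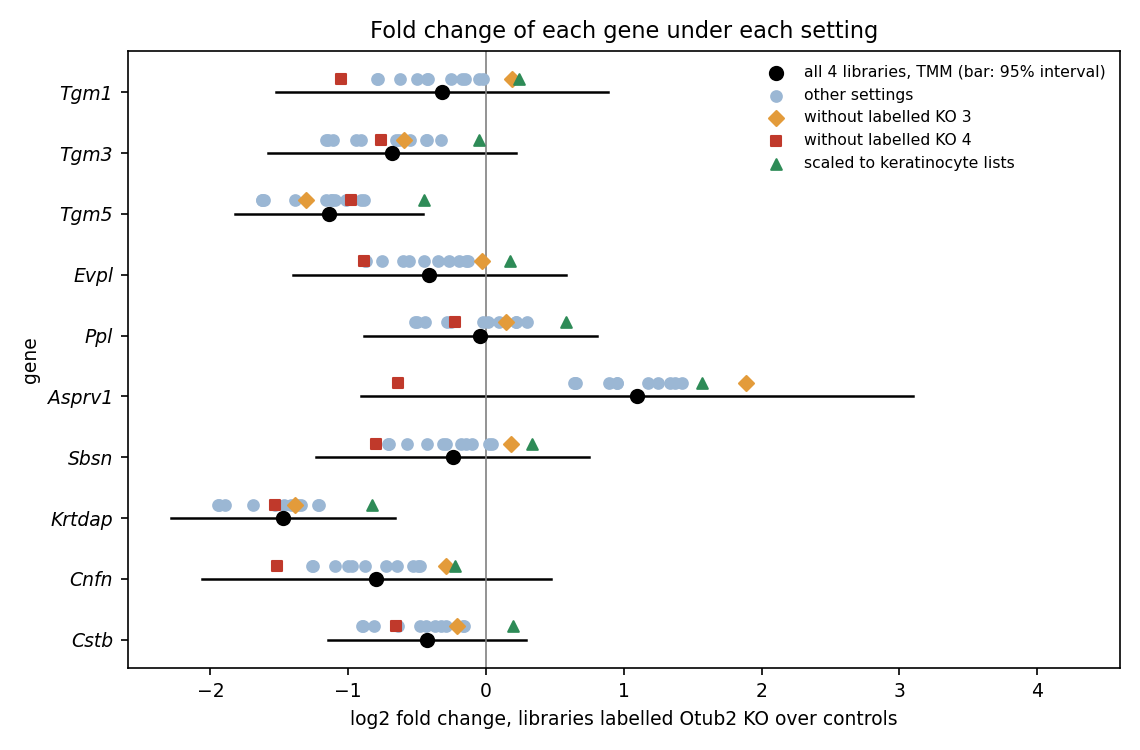
Log2 fold change of each gene, libraries labelled Otub2 knockout over controls. Black points and bars give the edgeR fit of all 4 libraries with its 95% interval, and coloured points the same value without library 3, without library 4, scaled to keratinocyte markers, and under 11 other settings. Tgm3, Tgm5, Krtdap and Cnfn stay below 0 in each, whereas Asprv1 turns from 1.10 to -0.64 without library 4.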

How the data were processed

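RNA was sequenced from 2 control libraries and 2 libraries labelled Otub2 knockout. The deposited table holds read counts per gene and FPKM. Per the submitters' processing notes HISAT2 and DESeq were used, and the build named there is GRCh38, a human one. The deposited FPKM equal count / length / column total (largest relative difference 9.36e-15), which gave the gene lengths. For the counting program, annotation and strand setting: not given in the sources used here. Total counts were 11882900 to 23017183.

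The 14785 unannotated features (0.914% to 2.84% of counts) entered neither library sizes nor tests. Counts were tested with edgeR 4.0.16 in R 4.3.3 (TMM, filterByExpr with a minimum of 10 counts, quasi-likelihood F-test, Benjamini-Hochberg threshold 0.05 over 21916 genes), after tests on simulated data. SE is the log2 fold change over the square root of F. "Above" and "below" mean that both labelled libraries, or the one named, lie outside both controls, over 11788 genes of mean CPM at least 5. Alternatives were DESeq2 1.42.0, limma voom 3.58.1, other scalings and filters, and leaving out each library. Positions are from GENCODE mouse release M21, in which 54409 of 54446 IDs were found, and promoter windows from RefSeq. All 10 genes are named, with up to 4 genes of smallest p per further list and fixed partners (Dmkn, cathepsins, Flg, Lor, Ivl). The genes and lists were chosen with earlier results of these data known. The controls differed by more than counting error (chi-square over its degrees of freedom, 11.5), so each counted as a library of its own.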

Additional observations from a re-analysis of the deposited data

How the results depend on the processing

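Over 14 alternatives (12 planned and 2 chosen after seeing the data: centring each library on its median gene, and scaling to keratinocyte markers), the log2 fold changes of Tgm3, Tgm5, Krtdap and Cnfn were negative in each. Over all genes, edgeR called 0 higher and 0 lower; scaling by library size only gave 37 and 1433, DESeq2 1165 and 123, and no filter on low counts 6 and 3. Leaving out 1 library gave 0 to 5243 higher and 0 to 5097 lower, and for the 10 genes 0 to 1 higher and 0 to 8 lower. The large counts came without a labelled library (4359 and 5097 without library 3, 5243 and 2961 without library 4); without a control, 0 were called. Signs turned as follows, and the cause was not tested. Scaled to keratinocyte markers, the log2 fold changes were Tgm1 0.24, Evpl 0.17, Ppl 0.58, Sbsn 0.33, Cstb 0.19 and Otub2 0.29. Ppl was also 0.015 with RLE factors, 0.22 with DESeq2, 0.092 without the filter and 0.22 with unannotated features kept, and Sbsn 0.045 with DESeq2 and 0.022 with unannotated features kept. Ctsb was -0.044, -0.026 and -0.055, and Ctsh -0.29, -0.25 and -0.30, with upper-quartile, library-size and median-centred scaling, and Ctsh was -0.043 without gland and cardiac genes in the library size. Leaving out 1 library at a time, Tgm1 ranged from -1.05 (without library 4) to 0.19 (without library 3), Ppl from -0.28 to 0.30 (without Control 1 and 2), Sbsn from -0.80 to 0.18 and Asprv1 from -0.64 to 1.89 (without library 4 and 3), Ctsh from -0.028 to 0.47 (without Control 2 and 1), and Tgm2 from -0.10 to 3.25 (without library 3 and 4). The log2 fold of the Tgm1 to Tgm3 ratio, 0.22, ranged from -0.32 to 0.76 (-0.23 without Control 2), and that of Tgm5 to Tgm1 from -1.5 to 0.068; leaving libraries out of ratios was chosen after seeing the data. No paired analysis was possible because the groups share no replicate number. There were 2 libraries a group, and library 3 stood apart from the rest. The 10 genes had at least 470 counts in each library, and whether depth limits these comparisons was not tested.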
